A study of Mus musculus with 2 samples.

Results

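The Myc network is a set of bHLH-leucine zipper transcription factors that meet on a common partner, Max. Its 8 genes examined here were Myc, Mycn, Mycl, Max, Mnt, Mxd3, Mxd4 and Mga, found by symbol among the 32286 features of single-cell RNA-seq libraries from mouse cells of the ICR strain. There were 2 libraries, one of embryonic stem cells (ESCs, 0 h) grown in serum/LIF medium, and one of 48h-EpiLCs, epiblast-like cells that had differentiated for 48 h on Matrigel in N2B27 medium with activin A, bFGF and KSR. Each library was a mixture of equal cell numbers of a wild-type line (WT), which carries the ROSA mT/mG reporter and so transcribes tdTomato, and a Cnot8 knockout (KO) line, which lacks a deadenylase of the Ccr4-Not complex. The KO lines were derived from blastocysts of heterozygote crosses and expanded from picked colonies, so that line, clone and sex cannot be told apart from the genotype. With 1 library per stage, stage and library cannot be told apart either, and no test between groups was possible.

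Barcodes had to show at least 1000 genes and no more than 10% of UMIs from mitochondrial genes, which left 11054 of 13184 barcodes in the ESC library and 9400 of 12427 in the 48h-EpiLC library. A kept cell was taken as WT when it had at least 1 UMI of tdTomato and 0 of the Y-linked genes Ddx3y, Eif2s3y, Kdm5d and Uty, and as KO when it had 0 of tdTomato and at least 2 of those genes. This gave 435 WT and 2978 KO ESCs, and 368 WT and 2977 KO 48h-EpiLCs. The other 7641 ESCs and 6055 48h-EpiLCs met neither rule, and 5321 and 4247 of them had 0 UMIs of all these genes. Because tdTomato and the Y-linked genes chose the lines, their levels are no evidence about them. Cnot8 itself could not serve as a check, since tags at the 3′ end of the mRNA do not read the targeted exon near its start. It had 43.1 CPM in WT and 72.1 CPM in KO ESCs, and 49.7 and 62.6 CPM in WT and KO 48h-EpiLCs.

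Summed UMIs were 6154790 for WT ESCs, 44110356 for KO ESCs, 6219834 for WT 48h-EpiLCs and 59291903 for KO 48h-EpiLCs, with medians of 13151, 13368, 15598 and 17628 UMIs per cell. All 8 markers of pluripotent cells were detected in each of these groups, with a summed level of 4397 to 6405 CPM. The KO ESCs, however, held 103 cells (3.46%) of a cluster rich in fibroblast markers, called feeder fibroblast-like and led by Acta2, S100a4 and Tagln, and 97 cells (3.26%) of a primitive endoderm-like cluster led by Gata6, against 3 and 8 WT ESCs. In the feeder-like cluster 10 feeder markers summed to 851 CPM, 11 primitive endoderm markers to 881 CPM and 5 contractile genes to 3206 CPM. In the primitive endoderm-like cluster these sums were 13.1, 1570 and 25.3 CPM. The name feeder-like is thus a label, and what these cells are was not tested. The 10 feeder markers summed to 15.9 CPM in WT and 47.5 CPM in KO ESCs (12.0 and 14.1 CPM without cells of other types), and to 11.6 and 14.9 CPM in WT and KO 48h-EpiLCs, where Col3a1, Postn and Lum were at 0 in the WT line. The 11 primitive endoderm markers summed to 260 and 274 CPM in WT and KO ESCs. Contractile genes such as Acta2 and Tagln, 5 in all, summed to 27.6 and 151 CPM in WT and KO ESCs (40.3 CPM in KO without cells of other types) and to 49.5 and 152 CPM in WT and KO 48h-EpiLCs, and their part in the results was not tested. Clusters of 703 ESCs and 900 48h-EpiLCs, with medians of 21315 and 26292 UMIs per cell, had a tdTomato UMI in 8.25% and 5.44% of cells and the Y-linked genes at 64.1 and 58.0 CPM, and were named neither WT nor KO. The libraries shared 41 barcode sequences, 26 of them among kept cells.

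As background, Myc, Mycn and Mycl bind DNA as pairs with Max at the E-box CACGTG and activate genes of ribosome production, metabolism and the cell cycle. Mnt and the Mxd proteins compete for Max and for the same sites, and bring the Sin3 and histone deacetylase corepressors instead. Mga also pairs with Max, and belongs to a Polycomb complex, PRC1.6, that keeps germline genes silent in pluripotent cells. In ESCs, Myc and Mycn overlap in function, and their mRNAs are short-lived.

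Promoters of some network genes hold the E-box themselves. Among RefSeq promoter windows of the mouse GRCm38.p6 assembly, each 300 bases from 250 before to 50 after a transcription start, 7 of the 8 genes had an entry. CACGTG, which reads the same on both strands, was found in 3 of them and in 2349 of all 32851 windows (7.15%). The 30 bases around each match are shown 5′ to 3′ on the gene's strand, with the E-box in capitals, because they place the letters that Myc-Max pairs read within the network's own promoters.
Max, chr12:76962234-76962263, minus strand: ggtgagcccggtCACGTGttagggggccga
Mnt, chr11:74830789-74830818, plus strand: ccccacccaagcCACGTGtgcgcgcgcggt
Mxd4, chr5:34187912-34187941, minus strand: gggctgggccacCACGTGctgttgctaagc
The match started 3 bases before the start site of Max, 123 before that of Mnt and 219 before that of Mxd4. No such letters were in the windows of Mycn, Mycl, Mxd3 and Mga. A match is a description of sequence and no binding was measured.

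Levels are given as CPM, the UMIs of a gene divided by the total UMIs of its group and scaled to the usual CPM total, with the exact 95% Poisson interval in parentheses. One UMI tag is counted per mRNA molecule at its 3′ end, so CPM needs no division by gene length, although capture may differ between genes. Intervals and ratios cover counting error only, not the spread between cultures. A gene was counted as past 1.5-fold when its CPM ratio exceeded 1.5 and the exact interval of its log2 ratio excluded 0, among genes with a mean of at least 5 CPM over the 2 groups compared. A gene low in 1 group could thus be measured through the other, where it was higher.

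Mycn was the most abundant of the 3 Myc genes in each group, and the only network gene past 1.5-fold between the lines in ESCs in all cells of the lines (Myc, Mxd3 or Mxd4 also were under some alternatives). It lies on chromosome 12 at 12936093-12941914 (GRCm38, minus strand). WT ESCs had 133 CPM (124-142) and KO ESCs 77.1 CPM (74.5-79.7), a log2 ratio of KO over WT of -0.78 (-0.89 to -0.67), or 1.72-fold lower in KO. Without cells of other types this ratio was -0.77, and within clusters of the same line -0.83. Among WT and KO 48h-EpiLCs the levels were 52.9 CPM (47.3-58.9) and 60.3 CPM (58.3-62.3), with a log2 ratio of 0.19 (0.03 to 0.36). The order was thus WT ESCs, then KO ESCs, then both kinds of 48h-EpiLCs, whose intervals overlapped. From ESCs to 48h-EpiLCs, Mycn was 2.51-fold lower in WT cells (log2 ratio -1.33, -1.52 to -1.14) and 1.28-fold lower in KO cells (log2 ratio -0.36, -0.42 to -0.29). The KO over WT ratio was 0.97 log2 units (0.78 to 1.17) higher in 48h-EpiLCs than in ESCs.

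Myc, the family's first-known member, was lower than Mycn in all 4 groups and followed another order. Its position is chromosome 15 at 61985391-61990374 (plus strand). ESCs had 24.9 CPM (21.1-29.1) in WT and 35.7 CPM (34.0-37.5) in KO, a log2 ratio of 0.52 (0.28 to 0.77). The 48h-EpiLCs had 32.3 CPM (28.0-37.1) in WT and 27.9 CPM (26.6-29.3) in KO, a log2 ratio of -0.21 (-0.42 to 0.0063). KO ESCs stood highest and WT ESCs lowest, and each neighbour in the order overlapped the next, although the intervals of the WT and KO ESCs were apart. With differentiation, the log2 ratio was 0.38 (0.07 to 0.69) in WT cells and -0.36 (-0.46 to -0.26) in KO cells. The signs were thus opposite, and the KO minus WT difference was -0.73 (-1.05 to -0.42). With cells thinned to 5000 UMIs the WT ratio was 0.17, and the WT levels of the stages overlapped. None of these Myc ratios was past 1.5-fold by the rule, except within clusters of the same line, where the ESC ratio was 0.60.

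Mycl, the third family member, was near the limit of detection. It had 9 UMIs in WT ESCs, or 1.46 CPM (0.669-2.78), and 2.79 CPM (2.32-3.33) in KO ESCs, against 6.75 CPM (4.87-9.13) and 5.65 CPM (5.06-6.29) in WT and KO 48h-EpiLCs. Both 48h-EpiLC groups were above both ESC groups, and within a stage the lines overlapped. The stage log2 ratios were 2.21 (1.15 to 3.43) in WT and 1.02 (0.72 to 1.33) in KO cells, outside the count of genes past 1.5-fold because the mean level was under 5 CPM. The WT ratio was 1.52 with lines taken from clusters, where WT ESCs had 128 UMIs and 2.63 CPM, and 4.41 (1.75 to 9.79) with cells thinned to 5000 UMIs, where they had 1 UMI. Mycs, a further family gene in the feature list, had 0 UMIs in all 4 groups, which allows a level of up to 0.487 CPM in WT ESCs and 0.0506 CPM in KO 48h-EpiLCs (3 counts per group, counting error only).

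**Figure D1:**
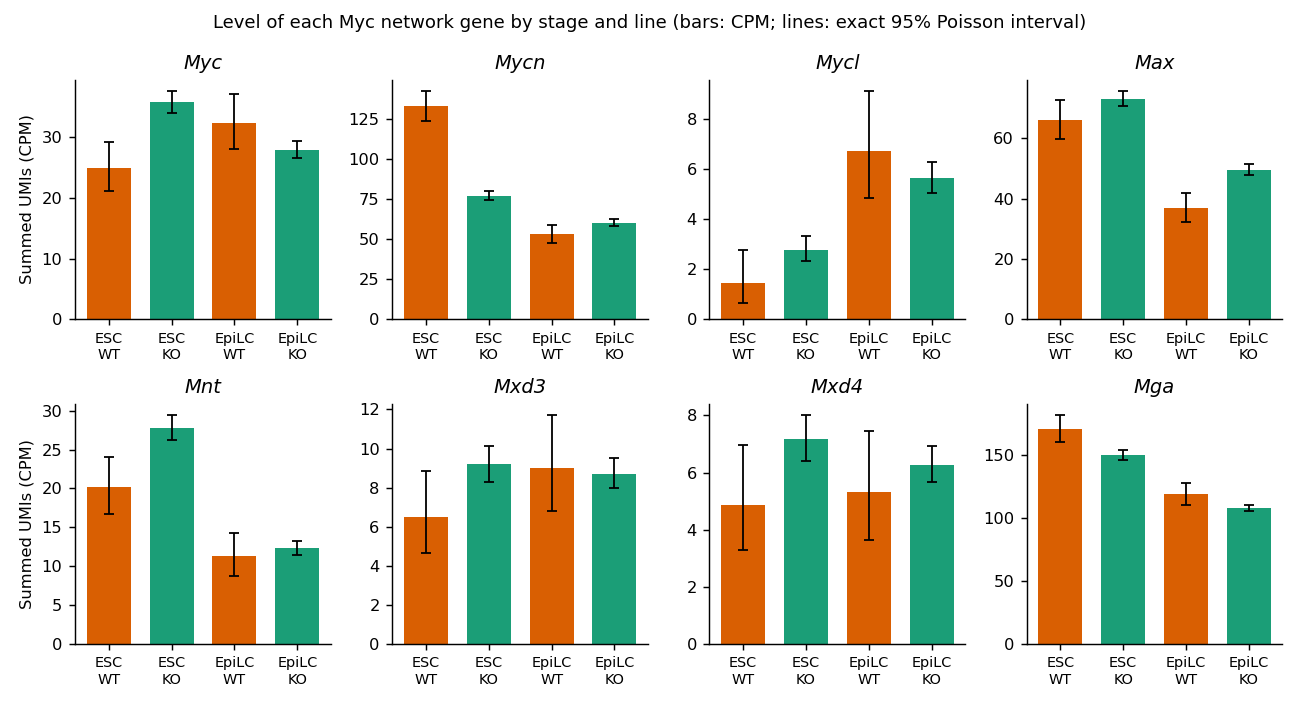
Level of each Myc network gene in WT and KO ESCs and 48h-EpiLCs (bars, summed UMIs as CPM, each panel with its own axis from 0), with the exact 95% Poisson interval as lines. Mycn stands at 133 CPM in WT ESCs against 77.1 CPM in KO ESCs and 52.9 to 60.3 CPM in 48h-EpiLCs, whereas Mxd3 and Mxd4 overlap between neighbouring groups.

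Summed over Myc, Mycn and Mycl, the family had 159 CPM (149-169) in WT ESCs, 116 CPM (112-119) in KO ESCs, 92.0 CPM (84.6-99.8) in WT 48h-EpiLCs and 93.8 CPM (91.4-96.3) in KO 48h-EpiLCs. Mycn made up 83.5% of these UMIs in WT ESCs, 66.7% in KO ESCs, 57.5% in WT 48h-EpiLCs and 64.2% in KO 48h-EpiLCs. The ratio of Mycn to Myc was 5.34 (4.49-6.39) in WT ESCs and 2.16 (2.03-2.29) in KO ESCs, with 1.64 (1.37-1.96) and 2.16 (2.04-2.29) in WT and KO 48h-EpiLCs. KO ESCs therefore had a Mycn to Myc ratio that overlapped that of KO 48h-EpiLCs, while the WT line had the highest and the lowest of the 4.

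Max, the obligate partner, was on chromosome 12 at 76937269-76962201 (minus strand). ESCs had 66.0 CPM (59.7-72.7) in WT and 73.0 CPM (70.5-75.5) in KO, which overlapped. The 48h-EpiLCs had 36.8 CPM (32.2-41.9) in WT and 49.5 CPM (47.7-51.3) in KO, with a log2 ratio of KO over WT of 0.43 (0.23 to 0.63). Max was lower in 48h-EpiLCs than in ESCs by 1.79-fold in WT (log2 ratio -0.84, -1.08 to -0.60) and by 1.47-fold in KO cells (log2 ratio -0.56, -0.63 to -0.49). In each group the summed Myc family was above Max in CPM.

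Mnt, the most broadly expressed of the repressing partners, was on chromosome 11 at 74830920-74845725 (plus strand). Its level was 20.1 CPM (16.8-24.0) in WT ESCs and 27.8 CPM (26.3-29.4) in KO ESCs, with a log2 ratio of 0.46 (0.20 to 0.74). After 48 h it was 11.3 CPM (8.77-14.2) in WT and 12.3 CPM (11.4-13.2) in KO cells, which overlapped. Mnt was lower after differentiation in both lines, by 1.79-fold in WT (log2 ratio -0.84, -1.28 to -0.41) and 2.26-fold in KO cells (log2 ratio -1.18, -1.31 to -1.04).

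Mxd3, a Mxd protein known from dividing cells, had 6.50 CPM (4.64-8.85) and 9.18 CPM (8.31-10.1) in WT and KO ESCs, and 9.0 CPM (6.80-11.7) and 8.72 CPM (7.98-9.50) in WT and KO 48h-EpiLCs. All neighbours in this order overlapped. Mxd3 (chromosome 13 at 55325168-55329823, minus strand) overlaps Prelid1 on the opposite strand, and the use of strand in counting is not given in the sources used here, so its level is uncertain. The same holds for Mxd4 (chromosome 5 at 34173883-34187720, minus strand), which overlaps the antisense gene Gm42846.

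Mxd4, known from differentiating cells, had 4.87 CPM (3.29-6.96) in WT ESCs, 7.16 CPM (6.40-8.0) in KO ESCs, 5.31 CPM (3.65-7.45) in WT 48h-EpiLCs and 6.27 CPM (5.65-6.95) in KO 48h-EpiLCs. The feeder fibroblast-like cells had 56.2 CPM (49.9-63.0), the highest Mxd4 level of any named cell class. Without the feeder-like, primitive endoderm-like and 2-cell-like cells, KO ESCs were at 5.24 CPM (4.56-6.0), and the stage log2 ratio in KO cells turned from -0.19 (-0.41 to 0.03) to 0.25. Its direction between stages in the KO line was thus not settled. The sign differed with and without cells of other types, which were 226 of the 2978 KO ESCs. Over the alternatives the ratio ranged from -0.55 (at least 4 Y-linked UMIs for KO) to 0.45 (within clusters of the same line).

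Mga, which joins a Max-binding domain to a T-box, was the most abundant of the 8 genes, on chromosome 2 at 119897228-119969581 (plus strand). ESCs had 171 CPM (161-182) in WT and 150.1 CPM (146-154) in KO, and 48h-EpiLCs had 119 CPM (110.4-128) in WT and 108 CPM (105-111) in KO. It was lower in 48h-EpiLCs by a log2 ratio of -0.52 (-0.66 to -0.39) in WT and -0.48 (-0.53 to -0.43) in KO cells. The difference between these stage ratios, 0.05 log2 units, had an interval from -0.10 to 0.19, which included 0.

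In WT and KO ESCs, the median log2 ratio of KO over WT over all 9277 genes measured was 0.13, and TMM scaling moved all ESC line ratios by -0.10. Relative to that median, the ratios were -0.91 for Mycn, 0.39 for Myc, 0.02 for Max, 0.33 for Mnt, 0.37 for Mxd3, 0.43 for Mxd4 and -0.32 for Mga. X-linked genes had a median of -0.03 (300 genes) and autosomal genes 0.13 (8955 genes), and all 8 network genes are autosomal.

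By the 1.5-fold rule, 1 of 7 network genes measured differed between lines in ESCs, Mycn, which was lower in KO, against 5.61% of all genes that were lower (19.5% in either direction). Between lines in 48h-EpiLCs, 0 of 8 did, against 14% of 9385 genes. Between stages, 3 of 7 were lower in WT 48h-EpiLCs, namely Mycn, Max and Mnt, against 12.1% of 9242 genes (26.2% in either direction), and 0 were higher. Within clusters of the same line Mxd3 was also past 1.5-fold in WT cells, and higher, at 9.83 against 6.01 CPM (log2 ratio 0.71, 0.06 to 1.39). In KO cells 1 of 7, Mnt, was lower, against 11.1% of 9478 genes (20.6% in either direction). At 2-fold the counts were 0, 0, 1 (Mycn) and 1 (Mnt), against 6.24%, 4.02%, 10.9% and 7.71% of all genes. Median log2 ratios over the genes measured were 0.46, 0.04, -0.52 and -0.36 for these comparisons, beside medians of all genes of 0.13, 0.08, 0.03 and -0.02.

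**Figure D2:**
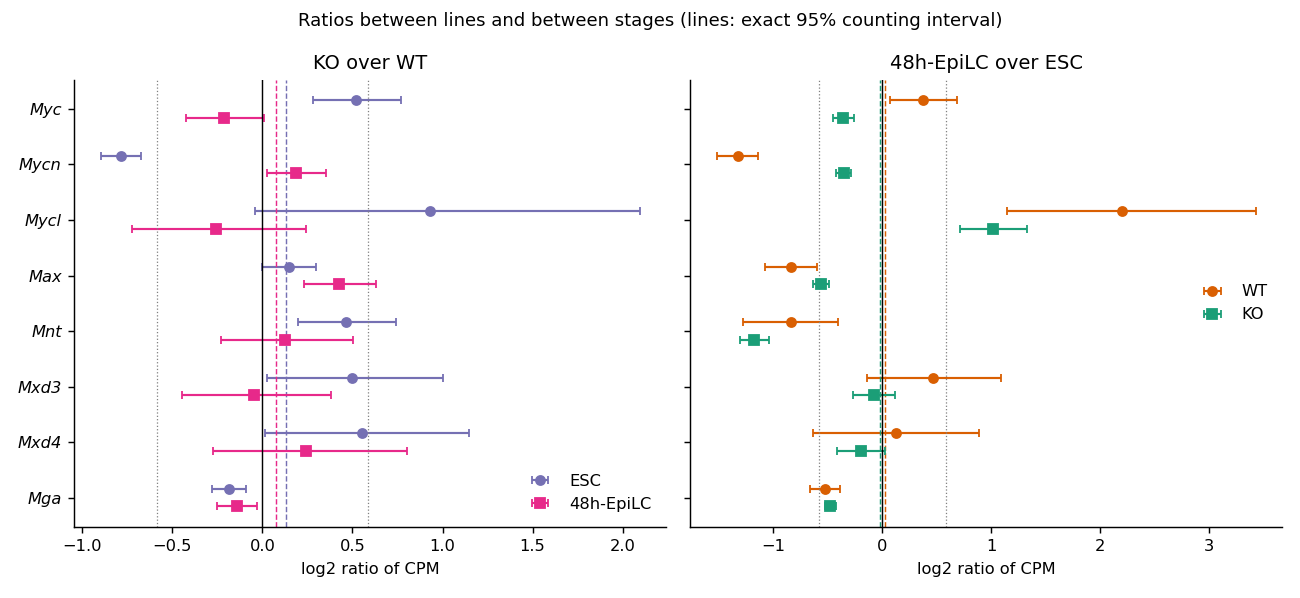
Log2 CPM ratios of each network gene between lines (left) and between stages (right), with exact 95% counting intervals as lines, the 1.5-fold limits dotted in grey and the median of all genes dashed in the colour of its comparison. The KO over WT ratio of Mycn is -0.78 in ESCs and 0.19 in 48h-EpiLCs, and the stage ratio of Myc is 0.38 in WT and -0.36 in KO cells.

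Mnt, Mxd3 and Mxd4 together had 31.5 CPM (27.2-36.3) in WT ESCs, 44.1 CPM (42.2-46.1) in KO ESCs, 25.6 CPM (21.7-29.9) in WT 48h-EpiLCs and 27.3 CPM (26.0-28.6) in KO 48h-EpiLCs. The Myc family exceeded them 5.05-fold (4.32-5.92) in WT ESCs and 2.62-fold (2.49-2.76) in KO ESCs. In WT and KO 48h-EpiLCs the ratios were 3.60 (3.01-4.32) and 3.44 (3.25-3.64), which overlapped. In ESCs the intervals of the lines were apart, with a lower family level and a higher level of the repressing partners in KO.

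**Figure D3:**
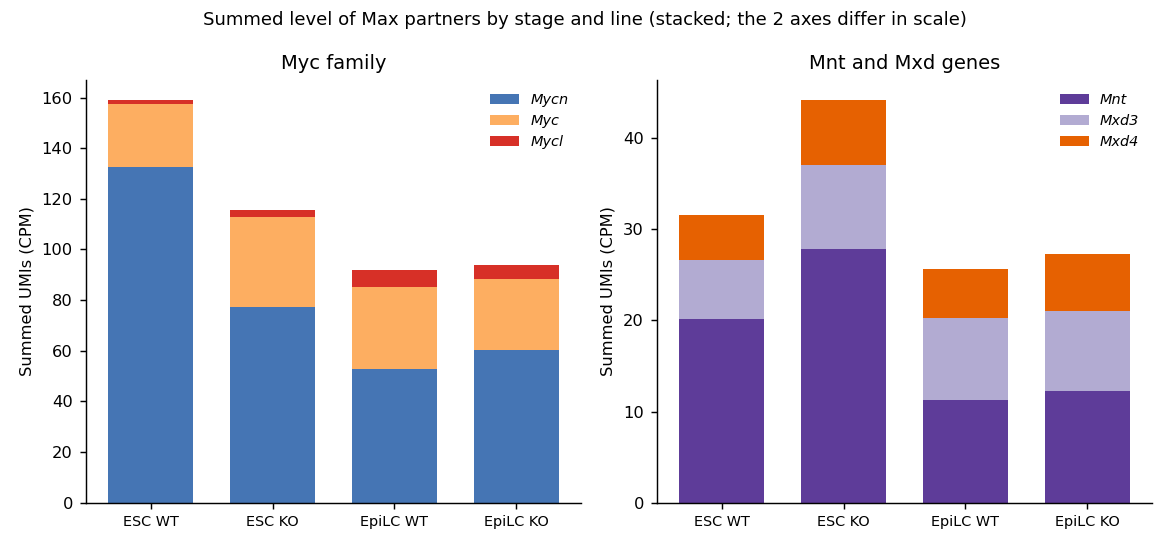
Summed CPM of Mycn, Myc and Mycl (left) and of Mnt, Mxd3 and Mxd4 (right) in the 4 groups, stacked from 0 on axes of different scale. The family total is 159 CPM in WT ESCs, 116 CPM in KO ESCs and 92.0 to 93.8 CPM in 48h-EpiLCs, and the repressing partners are highest in KO ESCs at 44.1 CPM.

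Detection in single cells followed these levels. Each cell was thinned to 5000 UMIs, which left 434, 2955, 367 and 2968 cells in WT ESCs, KO ESCs, WT 48h-EpiLCs and KO 48h-EpiLCs. The share of cells with a Mycn UMI was then 46.1% (exact 95% interval 41.3-50.9) in WT ESCs, 28.0% (26.4-29.7) in KO ESCs, 25.6% (21.2-30.4) in WT 48h-EpiLCs and 25.3% (23.8-26.9) in KO 48h-EpiLCs, and unthinned 73.8%, 55.4%, 55.7% and 59.9%. For comparison, the 413 feeder fibroblast-like ESCs (median 10552 UMIs, 312 after thinning) had a thinned share of 14.4% for Mycn and 13.5% for the pluripotency gene Pou5f1. The 8 pluripotent markers summed to 2686 CPM in this cluster, against 6405 CPM in WT and 5706 CPM in KO ESCs. Its shares can include free RNA or RNA of ESCs within the cluster, which was not tested, so they are no clean background.

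The thinned share for Myc was 12.0% in WT ESCs, 15.7% in KO ESCs, 13.6% in WT 48h-EpiLCs and 12.0% in KO 48h-EpiLCs, above 8.65% in the feeder-like cells. Unthinned, it was 26.7%, 37.7%, 37.8% and 38.1%, with deeper cells in the 48h-EpiLC library. Max went from 29.5% and 30.9% in WT and KO ESCs to 16.3% and 21.8% in 48h-EpiLCs against 21.5% in the feeder-like cells. Mnt had thinned shares of 10.4% in WT and 14.1% in KO ESCs, then 4.90% and 5.59% in 48h-EpiLCs, against 8.97% in the feeder-like cells, and Mga had 55.1%, 49.5%, 46.9% and 41.0%, against 30.8%. Mycl had a thinned share of 0.230% in WT ESCs, from 1 UMI, and 0.641% in the feeder-like cells. These counts are too few to tell the shares apart, so a level above background is not shown. The WT ESC level is the denominator of the WT stage ratio of Mycl. The 48h-EpiLC library had no feeder-like cluster, and whether feeder cells transcribe Myc, Max, Mnt and Mga themselves was not tested.

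Myc and Mycn were found together in 6.22% of thinned WT ESCs, 3.96% of KO ESCs, 3.00% of WT and 3.44% of KO 48h-EpiLCs. The product of the separate shares was 5.52%, 4.39%, 3.49% and 3.05%. Cells with neither made up 48.2%, 60.3%, 63.8% and 66.1%. Over the 28 pairs of network genes and 4 groups, 109 of 112 Pearson correlations across cells lay within 0.1 of 0. The highest, 0.46 for Mycl and Mxd4 in WT ESCs, rested on 1 cell with a thinned Mycl UMI, and values this small in sparse counts are no finding.

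Clusters built without the 8 genes gave a second view of the spread within a line. In 3 clusters of WT ESCs, Mycn had 105, 124 and 145 CPM, and in 4 clusters of KO ESCs it had 61.5, 71.6, 82.4 and 89.1 CPM, so the clusters of the lines did not overlap. WT 48h-EpiLC clusters had 49.2 to 58.0 CPM and KO clusters 48.0 to 74.4 CPM, which did. The KO 48h-EpiLC cluster at 74.4 CPM was led by genes that include Zfp42 and Klf2, known from naive pluripotent cells, and the one at 48.0 CPM was led by Acta2 and Tagln. Mxd4 was 10.0 CPM in the latter cluster, against 5.81 and 6.70 CPM in the other KO clusters.

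For Myc, WT ESC clusters spanned 22.0 to 28.6 CPM and KO ESC clusters 27.6 to 44.8 CPM. After 48 h the WT clusters had 20.8 to 36.3 CPM, a wider range than the 27.8 to 29.8 CPM of the KO clusters. The lowest WT value, 20.8 CPM, came from a cluster whose leading genes include Fbxo15 and Tfap2c, and the highest, 36.3 CPM, from one led by Fst and Car2. Among the other cells of the ESC library, the primitive endoderm-like cluster had 39.4 CPM of Myc and 62.3 CPM of Mycn, the feeder-like cells 18.5 and 39.6 CPM, and the 2-cell-like cells 15.9 and 92.1 CPM.

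**Figure D4:**
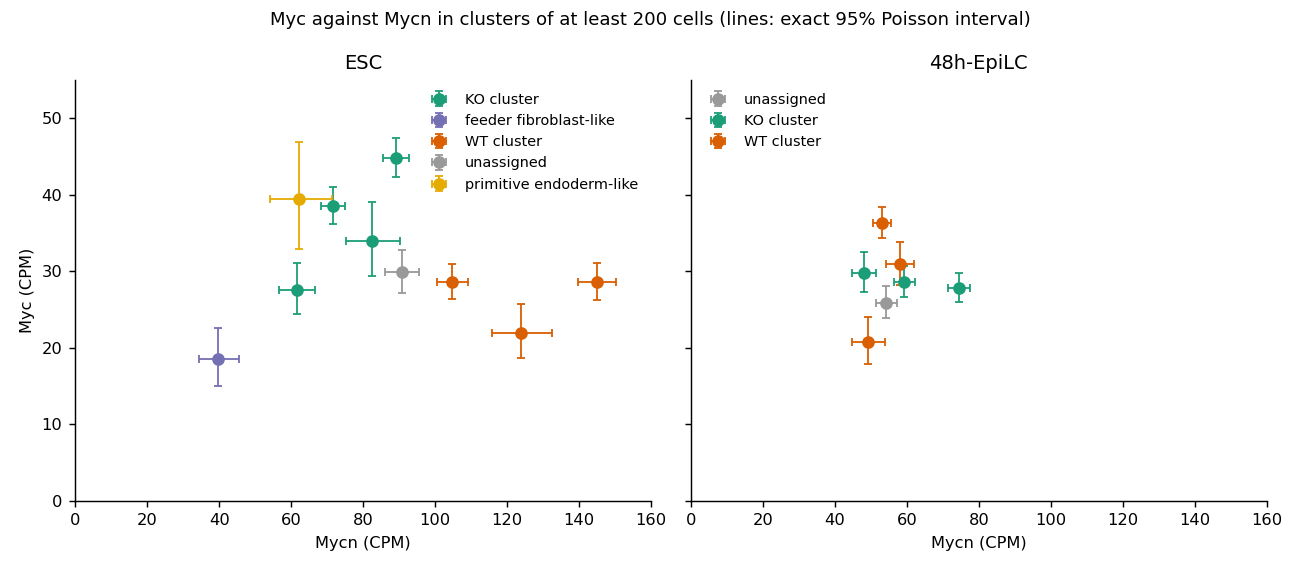
Myc against Mycn level (CPM) in each cluster of at least 200 cells of the ESC library (left) and the 48h-EpiLC library (right), with exact 95% Poisson intervals as lines and colours for the cluster's line or cell type. The WT ESC clusters lie at 105 to 145 CPM of Mycn and the KO ESC clusters at 61.5 to 89.1 CPM, whereas the 48h-EpiLC clusters lie between 48.0 and 74.4 CPM.

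Cells of each group were split into 3 bins by their share of UMIs from an S phase list of 18 genes. In WT ESCs, Mycn went from 110.2 CPM in the lowest bin to 163 CPM in the highest, a fold of 1.48 (1.24-1.76), and in KO ESCs from 73.9 to 80.2 CPM, a fold of 1.08 (0.997-1.18). For WT and KO 48h-EpiLCs the folds were 1.30 (0.973-1.73) and 1.31 (1.21-1.43). The bins are ranges of a score and differ in depth, with medians of 14424 and 12075 UMIs per cell in the lowest and highest bins of WT ESCs. Even in its lowest bin the WT ESC level was above the highest bin of the KO ESCs.

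Along a list of 20 genes of G2 and mitosis, the folds of Mycn between the highest and lowest bins were 1.01 (0.851-1.2) in WT ESCs, 0.959 (0.882-1.04) in KO ESCs and 1.04 (0.954-1.12) in KO 48h-EpiLCs. Without cells of other types the KO ESC fold was 0.887 (0.813-0.967), which excluded 1. In WT 48h-EpiLCs it was 0.692 (0.533-0.898). Max and Mga were higher in the highest bin of KO 48h-EpiLCs, each by 1.21-fold. In KO ESCs Max was lower in that bin, with a fold of 0.903 (0.828-0.985), and Mga was higher (1.14, 1.07-1.21). Mxd4 was lower in WT 48h-EpiLCs (0.302, 0.106-0.766) and in KO ESCs (0.497, 0.375-0.655), the latter at 0.863 (0.613-1.21) without cells of other types. The fold of Mxd4 along the S phase list in KO ESCs was 0.488 (0.363-0.650), and 0.898 (0.631-1.27) without cells of other types.

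The wider network around Max and its relative Mlx was represented by Mxd1, Mxi1, Mlx, Mlxip and Mlxipl. Mlx, the partner of the glucose-sensing Mlxip and Mlxipl, had 44.5 and 53.2 CPM in WT and KO ESCs and 34.6 and 40.1 CPM in 48h-EpiLCs. Mxi1 had 16.1 and 19.9 CPM, then 16.9 and 18.9 CPM. Mlxip had 4.06 CPM in WT ESCs and 6.65 to 7.07 CPM in the other groups, and it alone of the 3 genes measured was past 1.5-fold. Its log2 ratio was 0.75 (0.16 to 1.40) between lines in ESCs, where 13.9% of all genes were higher. Between stages in WT cells it was 0.80 (0.06 to 1.57), where 14% were. Both ratios rest on the same WT ESC level, which was under 5 CPM. Mlxip was thus measured through its level in the other group, and the 2 ratios are not separate results. Within clusters of the same line, 0 of the list were past 1.5-fold between stages in WT cells.

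Mxd1 and Mlxipl were under 5 CPM in every group. The levels of Mxd1 were 2.76 and 4.19 CPM in WT and KO ESCs and 1.77 and 1.91 CPM in WT and KO 48h-EpiLCs. Mlxipl had 1.46 and 2.88 CPM, then 1.12 and 3.63 CPM, and its interval excluded 0 between lines in 48h-EpiLCs (log2 ratio 1.69, 0.62 to 3.02). Mxi1, Mlx, Mlxip and Mlxipl overlap other features on the opposite strand, with the same uncertainty as for Mxd3.

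Cofactors of the network were compared next. Of 14 coactivators, among them the Trrap and Tip60 acetyltransferase subunits, 2 were higher in KO than in WT ESCs, against 13.9% of all genes. They were Kat2a, an acetyltransferase (69.4 against 44.8 CPM, log2 ratio of 0.50 relative to the median of all genes), and Dmap1, a Tip60 complex subunit (36.9 against 21.4 CPM, 0.65). Between lines in 48h-EpiLCs and between stages in WT cells, 0 of 14 were past 1.5-fold, against 14% and 26.2% of all genes. In KO cells 1 of 14 was lower after differentiation, against 11.1%, namely Zbtb17, the Miz1 protein through which Myc represses genes (log2 ratio -0.81).

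Of 10 corepressor genes, Sin3a, the scaffold of the complex recruited by Mxd proteins, was higher in KO ESCs (127 against 73.8 CPM, 0.66 relative to the median). In KO cells it was lower after 48 h (log2 ratio -0.86), and Sap30, a Sin3 complex subunit, was lower in both lines (-0.82 in WT and -0.77 in KO). Ncor1, a scaffold of another deacetylase complex, was lower in WT cells (-0.68, or -0.49 with lines taken from clusters). The other genes of the list, 9 of 10 between lines in ESCs, all 10 in 48h-EpiLCs and 8 of 10 in each stage comparison, were not past 1.5-fold. The shares of all genes that were past it were 19.5%, 14%, 26.2% and 20.6%, so that the counts of 1, 0, 2 and 2 of 10 were near or below the background. The list's median between lines in ESCs was 0.07, and -0.03 with TMM scaling.

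PRC1.6, the complex that holds Mga, had 10 genes measured besides Mga. Rybp, a subunit shared by several Polycomb complexes, was higher in KO ESCs (107 against 70.2 CPM, 0.48 relative to the median), 1 of 10 against 13.9% of all genes, and 0 of 10 differed between lines in 48h-EpiLCs, against 14%. Within clusters of the same line 2 of 10 were higher in KO 48h-EpiLCs, beside 9.04% of all genes in all cells of the lines. With differentiation E2f6, a DNA-binding subunit, and Yaf2, a relative of Rybp, were higher in both lines, by log2 ratios of 1.08 and 1.57 in WT and of 0.88 and 0.80 in KO cells, 2 of 10 against 14% and 9.51% of all genes. L3mbtl2, a chromatin-binding subunit, was lower in WT cells, from 120 to 57.9 CPM (log2 ratio -1.05). It was the only one of the 10 that was lower by the rule in WT cells, against 12.1% of all genes, and in KO cells 0 were. Between lines in ESCs the list's median was 0.08, and -0.02 with TMM scaling.

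Germline genes known to be kept silent by Mga-containing complexes were a list of 12. In ESCs 8 were measured and 2 were higher in KO, against 13.9% of all genes: Stra8, a gene of meiotic entry, at 47.9 CPM against 9.59 CPM in WT (2.19 relative to the median), and Sycp1, of the synaptonemal complex, at 50.8 against 15.1 CPM (1.62). In 48h-EpiLCs 4 of 12 were higher in KO, against 9.04% of all genes, namely Stra8 (log2 ratio 2.64), Tex101 (2.33), Sycp1 (1.05) and Meioc (0.66). Of the rest 1, Slc25a31, was lower (-0.61), against 4.95%. The filter takes the mean of both groups, so a gene low in WT can be measured through its KO level. Stra8, at 13.0 CPM in KO 48h-EpiLCs, was under 5 CPM in WT. The counts of higher genes in this list are therefore a description only. Stra8 is also a leading gene of 2 of the 4 KO ESC clusters. Between lines in ESCs, 3 of 8 were higher in KO without cells of other types, and 4 of 9 within clusters of the same line. The share of all genes in all cells of the lines was 13.9%.

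Between stages the same list went both ways. In WT cells Tdrkh, a piRNA pathway gene (log2 ratio 2.50), and Sycp3, of the synaptonemal complex (1.31), were higher in 48h-EpiLCs, against 14% of all genes, and Stra8 (-2.20) and Zcwpw1, a meiotic histone reader (-0.94), were lower, against 12.1%. In KO cells Meioc (1.27), Tdrkh (1.11) and Sycp3 (0.70) were higher, against 9.51%, and Stra8 (-1.88), Zcwpw1 (-1.01) and Sycp1 (-0.74) were lower, against 11.1%. They were 2 higher and 2 lower of 9 measured in WT, and 3 and 3 of 11 in KO cells. Within clusters of the same line the ratios in WT cells spanned -0.97 to 2.17, with 8 genes measured. Stra8 was at 9.59 CPM in WT ESCs and lower in WT 48h-EpiLCs, so its ratios rest on low WT levels. Those of Tdrkh rest on few UMIs in WT ESCs. Its KO over WT ratio differed between stages by -1.39 log2 units, with a wide interval (-2.34 to -0.44). The list medians, -0.05 in WT and -0.08 in KO cells, were near those of all genes.

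Other lists hold genes that act on Myc itself, through its protein or its mRNA. Of 10 genes of Myc protein turnover, which include the ubiquitin ligase subunits Fbxw7 and Skp2, 0 were past 1.5-fold between lines in ESCs or in either stage comparison, against 19.5%, 26.2% and 20.6% of all genes. In KO 48h-EpiLCs 1 of 10 was lower, against 4.95%, Gsk3b, the kinase that marks Myc for Fbxw7 (48.3 against 81.2 CPM, log2 ratio -0.75). Of 8 mRNA-binding proteins 1 was lower in KO ESCs, against 5.61%, Zfp36l1, which recruits Ccr4-Not to AU-rich mRNAs (31.7 against 62.2 CPM, -1.10 relative to the median). It was also lower after differentiation, to 18.3 CPM in WT (log2 ratio -1.76) and 13.5 CPM in KO cells (-1.23). Its relatives Zfp36 (0.87) and Zfp36l2 (0.73, or 0.45 with lines taken from clusters) were higher in WT 48h-EpiLCs than in WT ESCs.

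Of 45 growth genes that Myc is known to activate, 41 were not past 1.5-fold between lines in either stage, so that 4 of 45 were, against 19.5% of all genes in ESCs and 14% in 48h-EpiLCs. Tfrc, the transferrin receptor, and Ldha, lactate dehydrogenase, were lower in KO ESCs (153 against 275 CPM and 937 against 1442 CPM, -0.97 and -0.75 relative to the median), while Mthfd2, a mitochondrial folate enzyme, and Nop2, a ribosomal RNA methyltransferase, were higher (0.51 and 0.47). In 48h-EpiLCs, Tfrc (log2 ratio -0.91), Ccnd2, a G1 cyclin (-0.88), Ldha (-0.81) and Hk2, hexokinase (-0.68), were lower in KO and 0 were higher. The medians of 0.18 and 0.02 were close to the 0.13 and 0.08 of all genes. The members that were lower in both stages, Tfrc and Ldha, are genes of iron uptake and glycolysis.

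Between stages, 6 of 45 growth genes were lower in each line, against 12.1% of all genes in WT and 11.1% in KO cells, and so near the background. There were 3 higher in WT cells, against 14%, and 0 in KO cells, against 9.51%. Tfrc was lower by log2 ratios of -0.96 in WT and -1.02 in KO cells, Tcof1, a nucleolar factor of ribosomal RNA transcription, by -0.72 and -0.68, and Hk2 by -0.63 and -1.15. Mthfd2 (0.82), Cad, of pyrimidine synthesis (0.65), and Mrto4, a ribosome assembly factor (0.60), were higher in WT cells. Ccnd2 was lower in KO cells by -1.69, and by -0.91 without cells of other types. List medians were -0.17 in WT and -0.21 in KO cells.

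Among 7 growth-arrest genes that Myc is known to repress, the CDK inhibitor Cdkn2b was higher in KO in both stages (11.3 against 4.22 CPM in ESCs, 1.29 relative to the median, and a log2 ratio of 1.11 in 48h-EpiLCs). Gadd45a, a stress-response gene, was lower in KO in both (17.8 against 38.0 CPM in ESCs, -1.22 relative to the median, and -0.71 in 48h-EpiLCs). Ndrg1 (-0.89) and Ndrg2 (-0.77), which are linked to differentiation and stress, were lower in KO 48h-EpiLCs. From WT ESCs to WT 48h-EpiLCs, Ndrg2 (1.32), Cdkn1b (0.79) and Cdkn1a (0.72), both CDK inhibitors, were higher, and in KO cells Ndrg1 was lower (-1.26). The group moved in no single direction. Its counts were 1 higher and 1 lower of 6 between lines in ESCs, 1 and 3 of 7 in 48h-EpiLCs, 3 and 0 of 7 between stages in WT and 0 and 1 of 7 in KO cells, against 19.5%, 14%, 26.2% and 20.6% of all genes in either direction. Within clusters of the same line, the counts between stages in WT cells were 2 higher in place of 3 for this list and 1 lower in place of 2 for the germline list. Of the genes named from these lists, Zbtb17, Tex101, Meioc, Slc25a31, Tdrkh, Nop2, Cad, Mrto4, Cdkn2b, Cdkn1b, Ndrg1 and Ndrg2 were chosen after their values were seen. So were Yaf2 and Tcof1 between stages in KO, Stra8, Zcwpw1 and Hk2 between stages in WT, Sycp3 between stages in KO, and Stra8 and Ccnd2 between lines in 48h-EpiLCs.

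**Figure D5:**
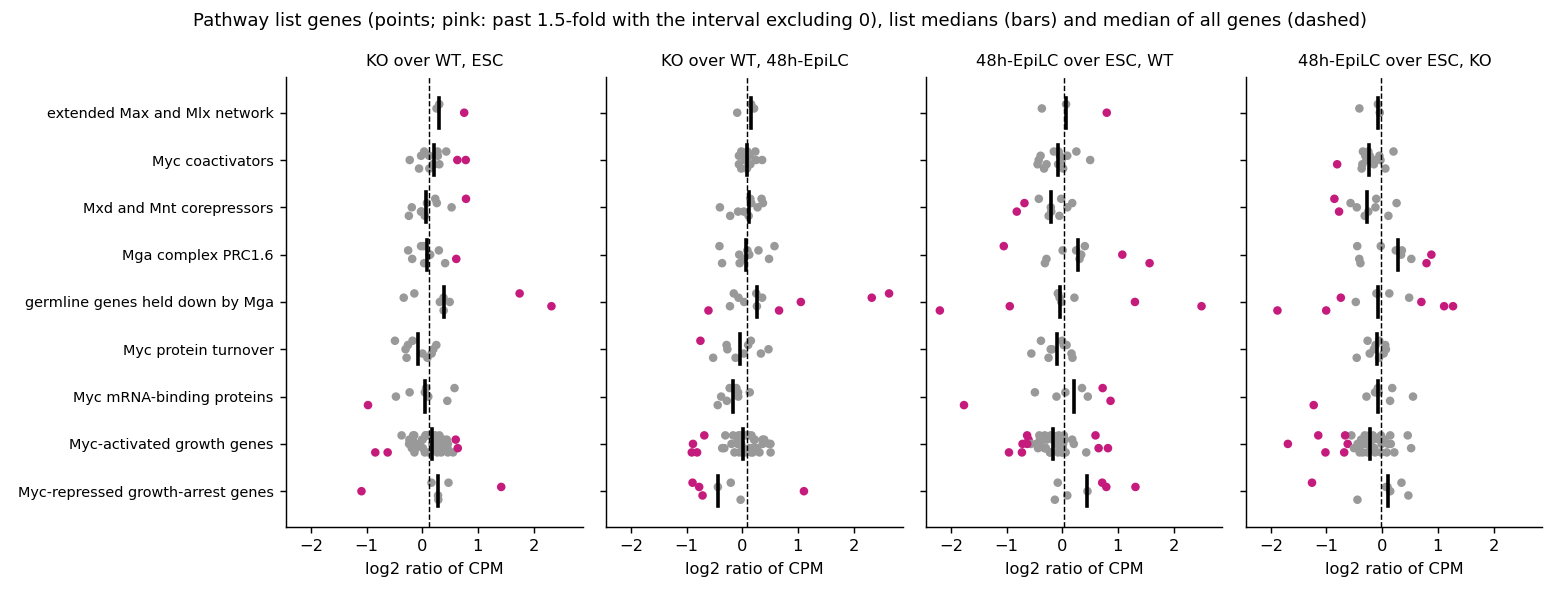
Log2 CPM ratios of the measured genes of each list (points, pink when past 1.5-fold with the interval excluding 0) in the 4 comparisons, with list medians as bars and the median of all genes dashed. Most points lie near the dashed line, and the widest spread is in the germline list, from -2.20 to 2.50 between stages in WT cells. The ends of that spread are Stra8 and Tdrkh, each low in 1 of the 2 groups. Within clusters of the same line (not drawn) that list spans -0.97 to 2.17.

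Likeness across cells was measured as the mean Pearson correlation of thinned log counts over the 4 groups. For Mycn, among 3669 genes, Sox2 (0.093), Ptma (0.088), Tdgf1 (0.084), Nasp (0.083) and Set (0.072) came first, and for Myc, among 3670 genes, Sin3a (0.069), Exosc4 (0.066), Ubqln1 (0.063), Pou3f1 (0.062) and Eif3a (0.061). The points are cells of shared libraries. Correlations this weak in sparse counts rank the genes and show nothing more.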

How the data were processed

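Single-cell RNA-seq libraries were made by the authors with the 10x Genomics 3′ chemistry, 1 per stage, and processed with Cell Ranger 3.0.2 against mm10 with the tdTomato sequence added (Seurat 4 is also named). The deposited matrices hold raw UMI counts per gene and cell. The use of strand in counting is not given in the sources used here, and the study's methods describe differentiation from 2i/LIF ESCs while the ESC library is labelled serum/LIF. Those methods place 2i/LIF ESCs on gelatin without feeders, and do not give the coating for the serum/LIF cells. The network genes, lists and rules were chosen with earlier results of these data known.

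Counts were read with Python 3.11.15 (numpy 2.4.6, pandas 2.3.3, scipy 1.17.1). Cells were filtered and assigned to lines as described above, UMIs were summed per line and library, and CPM, exact Poisson intervals, exact (Clopper-Pearson) intervals of shares and log2 ratios with exact binomial intervals conditional on both counts were computed. The interval of a difference between 2 log2 ratios was a normal approximation. All cover counting error only. Cells are not replicates, so no p-value was computed. Clusters came from scanpy 1.11.5 and leidenalg 0.10.2 (2000 variable genes without the 8 network genes, 30 components, 15 neighbours, resolution 1), were named from marker lists and by line from tdTomato and Y-linked UMIs, with limits of 20 and 100 CPM on the latter set after the data were seen. Doublets were scored but kept, and the top 10% were left out as an alternative. TMM factors came from edgeR 4.0.16 in R 4.3.3, with no test. Positions were taken from GENCODE M21 (GRCm38), which matched 32158 of 32286 features (99.6%). Ratios and thinning were tested on simulated data.

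The text names all 8 network genes and the extended network, up to 3 genes per list and comparison with the widest ratio among those past 1.5-fold with at least 20 CPM in a group, and the 5 genes most alike to Myc and Mycn.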

Additional observations from a re-analysis of the deposited data

Results flagged for a closer look

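Mycn was lower in KO than in WT ESCs, a difference that was not seen in 48h-EpiLCs. The log2 ratio of KO over WT was -0.78 in ESCs and 0.19 (0.03 to 0.36) in 48h-EpiLCs, a difference of 0.97. In 48h-EpiLCs the ratio was 0.11 relative to the median of all genes, and 0.11 with cells thinned to 5000 UMIs. The levels of the lines overlapped there, so a reversal is not shown. With 1 library per stage the difference was not tested between cultures, and its interval covers counting error only.

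The stage ratios of Myc had opposite signs in the 2 lines. From ESCs to 48h-EpiLCs its log2 ratio was 0.38 in WT and -0.36 in KO cells, and the KO minus WT difference was -0.73, which likewise was not tested. Within clusters of the same line the KO value was -0.46.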

How the results depend on the processing

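Of 256 alternative values of the 32 ratios of network genes, 237 lay within the counting interval of the reported value, 19 outside it, and 9 changed sign, 0 of them among the 5 ratios past 1.5-fold. Between lines in ESCs, Mycn ranged from -0.88 with TMM scaling to -0.67 with lines taken from clusters. Between lines in ESCs, where 1 gene (Mycn) was past 1.5-fold, 2 were with at least 4 Y-linked UMIs for KO (Mycn, Mxd4), 3 without the top 10% of doublet scores (Mycn, Mxd3, Mxd4), 2 with at least 2000 genes and at most 5% mitochondrial UMIs (Mycn, Mxd4), 3 within clusters of the same line (Myc, Mycn, Mxd3; chosen after seeing the data) and 0 at 2-fold. Between lines in 48h-EpiLCs, 1 (Mxd4) was with lines taken from clusters in place of 0. Between stages in WT cells, where 3 were, 1 (Mycn) was at 2-fold and 4 within clusters of the same line (Mycn, Max and Mnt lower, Mxd3 higher), and in KO cells 2 (Max, Mnt) with at least 4 Y-linked UMIs in place of 1. The cause was not tested. Without the filter on low levels, 14.9%, 11.3%, 19.5% and 22.9% of all genes were past 1.5-fold in these comparisons. Mycl and Mxd4 are limited by depth, with 9 and 30 UMIs in WT ESCs. No paired analysis was possible because there was 1 library per stage and no replicate numbers.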
